A study of Mus musculus with 31 samples.

Results

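MicroRNAs (miRNAs) are RNAs of short length that pair through their seed, bases 2 to 8 from the 5′ end, with messenger RNAs and lower their translation or stability. miRNAs that share a seed form a family, and many are cut in pairs from the 5′ (5p) and 3′ (3p) arm of 1 hairpin. In lung, miR-126 marks endothelium, the miR-200 family epithelium, miR-34b, miR-34c and miR-449a multiciliated airway cells, miR-143 and miR-145 smooth muscle, miR-142 and miR-223 leukocytes, and miR-451 and miR-144 red blood cells. The data described here are the room-air lungs of a study of cigarette smoke in mice: the 16 arrays titled as controls, of 31 arrays in all, with 4 arrays at each of 4, 6, 8 and 12 weeks. All came from whole lung of female BALB/c mice that breathed room air for the stated time while other mice were exposed to smoke. The labels name no genetic change, and do not give the age of the mice. Duration in the study and age therefore cannot be told apart. Total RNA, 100 ng per array, was labelled with the dye Cy3 and hybridised to Agilent mouse miRNA arrays. The question the comparison addresses is what lung miRNAs look like without smoke, and whether that baseline moved over the weeks of the study.

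The arrays carried 1857 probes for 611 mouse miRNAs and 39 viral ones. Of the mouse miRNAs, 214 were detected on all 16 arrays, 68 on some and 329 on none. Levels are given as the log2 of the signal divided by each array's 75th percentile over 405 probes detected on every array, so 0 is that percentile and -6.54 is the floor below which values have no order. A total of 265 entries, 262 of them mouse miRNAs, were detected on 75% of the arrays of at least 1 duration and were tested. The signal at that percentile before scaling ran from 861.1 to 3426 between arrays, from 932.6 to 1336 at 12 weeks and from 1972 to 3155 at 8 weeks. Differences between durations are therefore given on the scaled signal. Unscaled signal appears only as an alternative setting and as a description of the arrays. Each probe binds its target with its own strength, so the order of signals is not an order of copy numbers. Each of 4 slides held 1 room-air array of every duration, but each duration sat in 1 fixed column of the slide, so duration and column cannot be told apart.

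Sequences are shown for the 3 seed families that carry the results below: the let-7 guides, which hold 4 of the 10 brightest places, and the families of the 2 miRNAs with the lowest p-values between durations, miR-29a-3p and miR-449a-5p. They are from RefSeq on GRCm38.p6, 5′ to 3′, with the seed in capitals. Of the 262 mouse miRNAs tested, 206 matched a RefSeq entry by name.
let-7f-5p: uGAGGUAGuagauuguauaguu
let-7a-5p: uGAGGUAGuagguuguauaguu
let-7c-5p: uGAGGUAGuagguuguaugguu
let-7b-5p: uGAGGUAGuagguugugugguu
miR-29a-3p: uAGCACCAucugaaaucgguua
miR-29b-3p: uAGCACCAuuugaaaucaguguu
miR-29c-3p: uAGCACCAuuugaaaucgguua
miR-449a-5p: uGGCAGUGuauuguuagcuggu
miR-34b-5p: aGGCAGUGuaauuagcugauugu
miR-34a-5p: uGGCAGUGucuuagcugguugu
The miR-29a-3p stretch lies at chr6:31062673-31062694 on the minus strand. That of miR-449a-5p lies at chr13:113037549-113037570 on the plus strand.

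Room-air lung signal was held by few miRNAs, and the same ones led at every duration. miR-451, a red blood cell miRNA, was the brightest on each of the 16 arrays, at 6.23 ± 0.22 (SD, n = 16) on the log2 scale, and gave 16.1 ± 1.35% of the summed mouse miRNA signal. miR-126-3p, the endothelial miRNA, came second on each array, at 5.12, with 7.45% of the signal. The 10 brightest held 51.7 ± 2.12% of the signal (SD, n = 16), the 20 brightest 69.6 ± 1.52% and the 50 brightest 90.2%. From the brightest to the dimmest of the 214 miRNAs detected on all arrays the mean signal spanned 12.22 log2 units.

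After these came let-7f-5p at 4.44, miR-23a-3p at 4.36, let-7a-5p at 4.25, let-7c-5p at 4.0, miR-720 at 3.92, miR-26a-5p at 3.89, miR-21-5p at 3.58 and let-7b-5p at 3.51. The let-7 family, known for its rise as tissues mature, thus filled 4 of these places with sequences that differ only outside the seed. The miR-720 probes read a sequence that is better known as a fragment of a transfer RNA. It was also the least steady of the 20 brightest, with values from 3.26 to 4.88.
The rest of the 20 were miR-29a-3p, a repressor of collagen genes, at 3.39, miR-24-3p at 3.35, miR-30a-5p at 3.17, miR-23b-3p at 3.14, miR-125b-5p at 3.09, miR-22-3p at 3.07, miR-27a-3p at 2.85, miR-16-5p at 2.8, miR-30c-5p at 2.79 and the leukocyte miRNA miR-142-3p at 2.72.

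**Figure D1:**
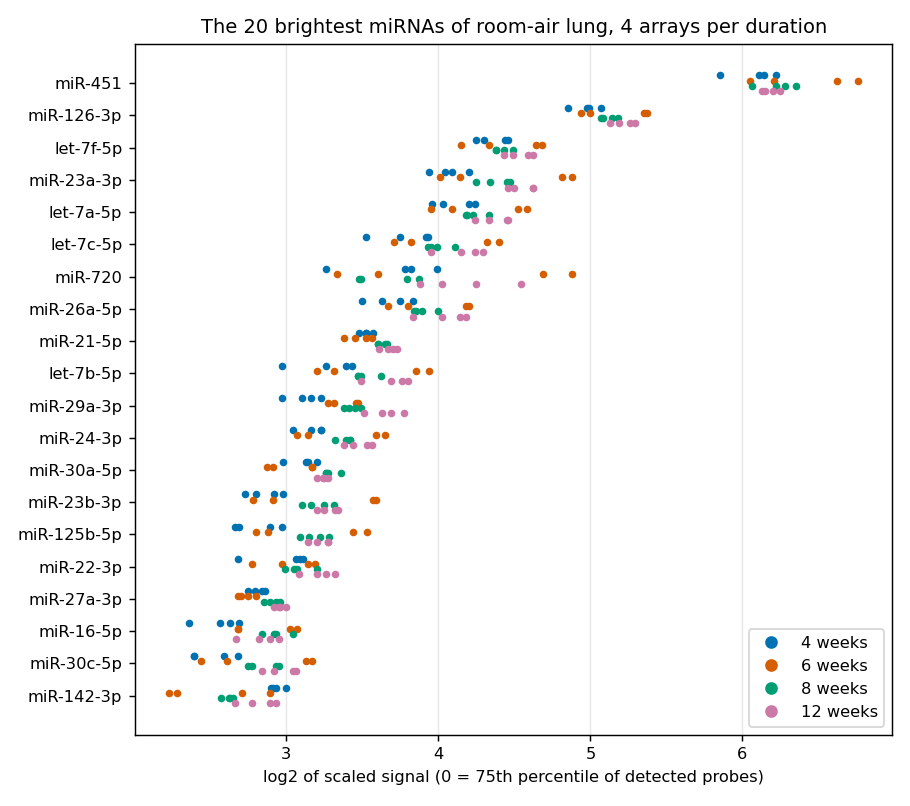
Log2 of scaled signal (x axis) of the 20 brightest miRNAs of room-air lung, 1 point per array, with 4 arrays for each duration in its own colour. miR-451 and miR-126-3p lead on every array, and miR-720 is the most scattered, from 3.26 to 4.88.

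The order changed little with duration. Of the 20 brightest miRNAs, 18 were among the 20 brightest at all 4 durations, and the rank correlation of the 214 miRNAs between duration means ran from 0.992 to 0.997. That correlation is a description: the miRNAs share probes, arrays and scaling. miR-142-3p moved most in this order, from place 15 at 4 weeks to place 24 at 6 weeks, and its means were 2.94, 2.53, 2.62 and 2.81 at 4, 6, 8 and 12 weeks. The share of signal held by miR-451 was 16.1 ± 0.782% at 4 weeks, 17.6 ± 1.26% at 6 weeks, 16 ± 0.901% at 8 weeks and 14.7 ± 0.412% at 12 weeks (SD, n = 4 each). The 6-week and 12-week arrays did not overlap in this share, with 16.3% the lowest at 6 weeks and 15.2% the highest at 12 weeks. This pair was picked as the highest and lowest mean, and its overlap over all miRNAs was not computed. The miR-451 level itself did not pass the limma test of any difference between durations (adjusted p = 0.205). Nor did it pass for another pair, 12 against 4 weeks (0.1 ± 0.13 on the log2 scale, limma adjusted p = 0.536).

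Most miRNAs listed for lung cell types were detected: 2 of 14 epithelial, 2 of 7 multiciliated, 2 of 15 smooth muscle and mesenchymal and 2 of 10 leukocyte members were detected on no array. In the endothelial group, miR-126-5p reached 1.01. In the smooth muscle and mesenchymal group, miR-199a-3p reached 1.89, miR-10a-5p 1.68 and miR-143-3p 1.11. In the epithelial group, miR-200b-3p reached 1.45, miR-200a-3p 0.95 and miR-200c-3p 0.67, and in the multiciliated group miR-34b-5p reached 0.26 and miR-34c-5p -0.07. Leukocyte members after miR-142-3p were miR-223-3p at 1.05 and miR-146a-5p at 0.97. miR-122-5p of liver, miR-124-3p and miR-124-5p of neurons, miR-208a-3p and miR-499-5p of heart, and miR-216a-5p and miR-217-5p of pancreas lay at the floor on all 16 arrays. miR-208b-3p, the other heart and slow-muscle miRNA of that kind, was detected on all 16 arrays, between -5.64 and -4.89. miR-192-5p and miR-194-5p, which liver and gut also make, read -3.34 and -3.86, and miR-128-3p, high in brain, read -4.27. Of 66 mouse miRNAs of the imprinted Dlk1-Dio3 region, which is active in embryos, 55 were detected on no array.

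The arrays of a duration were not equally far apart, and this bears on every test below. Over 107 brighter miRNAs, the SD of the log2 difference was 0.081 between 4-week arrays 2 and 3 and 0.175 between arrays 1 and 4, but 0.214 to 0.337 across these pairs. At 6 weeks it was 0.128 between arrays 1 and 2 and 0.071 between arrays 3 and 4, but 0.447 to 0.539 across them. The 12-week arrays gave 0.065 and 0.067 within the pairs 1 with 3 and 2 with 4, against 0.105 to 0.146 across, and the 8-week arrays all lay within 0.063 to 0.123 of each other. Arrays of different durations differed by 0.14 to 0.719, with a median of 0.286. The 2 pairs of the 6-week group were thus farther apart than the median pair of arrays from different durations. The labels do not say whether the 4 arrays of a duration are 4 mice, so p-values measure only the spread between arrays, which may be technical. Whether the arrays of a pair share RNA was not tested.

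**Figure D2:**
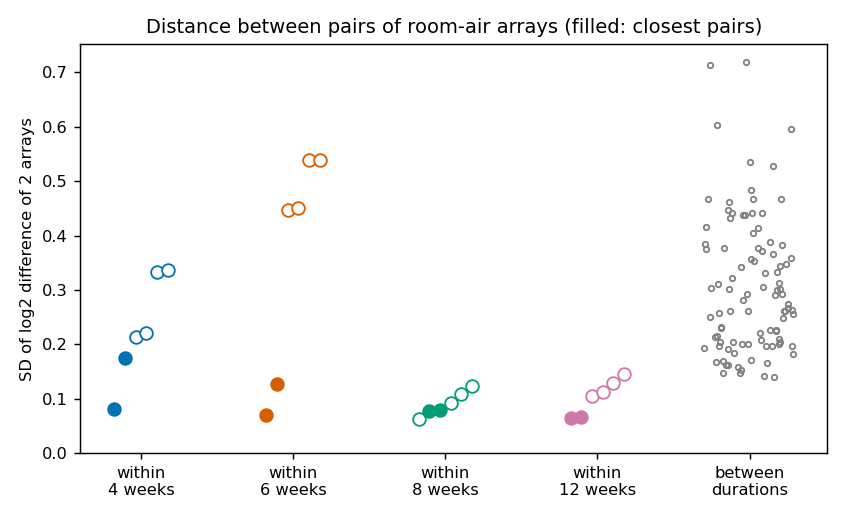
SD of the log2 difference between 2 arrays over 107 brighter miRNAs (y axis), for the 6 pairs of arrays within each duration and all pairs from different durations; filled points mark the split into 2 pairs with the smallest distances. Across the pairs the 6-week arrays lie 0.447 to 0.539 apart, and the 8-week arrays are all within 0.123.

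With each array counted as a sample, limma called 83 of 265 entries different between the 4 durations at a Benjamini-Hochberg adjusted p of 0.05, which is 31.3% of those tested. The contrast of 12 with 4 weeks gave 115 calls (43.4%), 94 higher (35.5%) and 21 lower (7.92%), with a median difference over all 265 entries of 0.20 on the log2 scale. From 4 to 6 weeks there were 40 calls (15.1%), 20 higher and 20 lower (7.55% each); from 6 to 8 weeks 8 (3.02%), all higher; and from 8 to 12 weeks 4 (1.51%), 1 higher (0.377%) and 3 lower (1.13%). A straight trend over weeks was called for 26 entries (9.81%), 20 rising (7.55%) and 6 falling (2.26%). When the closest pairs of arrays were averaged, leaving 2 values per duration, limma called 0 entries in each of these 6 tests. At an unadjusted p of 0.05 the averaged values gave 10 entries for any difference, 27 for 12 against 4 weeks, 18 for 6 against 4, 11 for 8 against 6, 11 for 12 against 8 and 22 for the trend. With the pairs as a random block the calls were also 0, with 28, 69, 43, 13, 9 and 44 entries in the same order at an unadjusted p of 0.05. Chance alone gives about a share of 0.05 of the 265 entries at that p. The averaged count for any difference did not exceed that share, nor did either count for 8 against 6 or 12 against 8. The pairs were found in these data, which raises their estimated correlation of 0.80.

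The counts also moved with scaling and with a few arrays. The split of the 115 calls into 94 higher and 21 lower became 47 and 24 with quantile scaling and 50 and 22 in the authors' deposited series table. From 4 to 6 weeks, 20 higher and 20 lower became 46 and 18 with quantile scaling, 64 and 21 in the deposited table and 78 and 5 when the percentile was taken over all probes. The 8 calls from 6 to 8 weeks, all higher, became 2 higher and 6 lower with the percentile over all probes, 10 and 7 with quantile scaling and 19 and 10 in the deposited table. From 8 to 12 weeks, 1 higher and 3 lower became 16 and 6 with the percentile over all probes, 11 and 13 with quantile scaling, 14 and 20 in the deposited table and 0 and 206 with no scaling. For the trend, 20 rising and 6 falling became 0 and 2 with quantile scaling, 0 and 3 in the deposited table and 2 and 0 with the percentile over all probes. The median difference of 12 from 4 weeks over all entries was 0.07 with quantile scaling and -0.17 with no scaling. Without 4-week arrays 1 and 4 the contrast of 12 with 4 weeks called 3 entries instead of 115, and the test of any difference 17 instead of 83. Without 6-week arrays 3 and 4 they called 178 and 203.

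**Figure D3:**
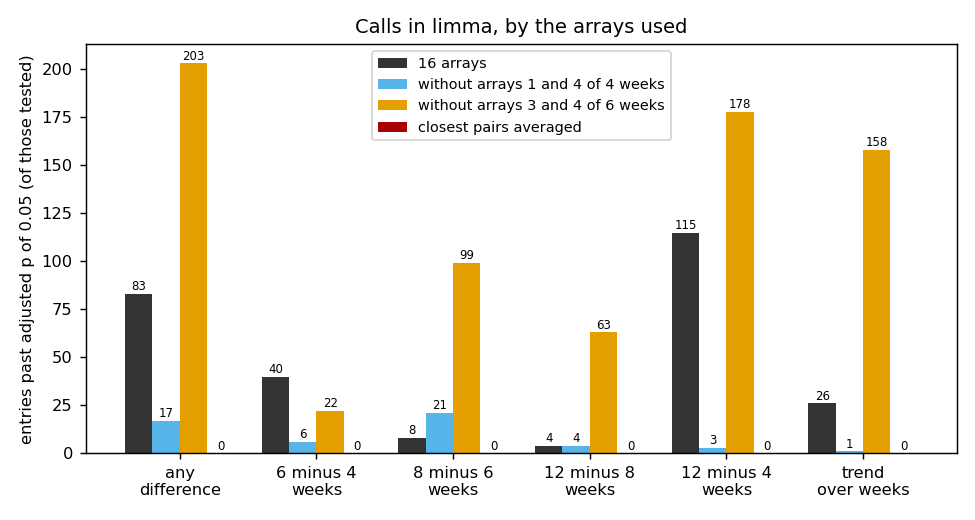
Number of entries past an adjusted p of 0.05 in limma (y axis, linear from 0) for 6 tests, with all 16 arrays, without 2 arrays of 4 weeks, without 2 arrays of 6 weeks, and with the closest pairs of arrays averaged. The contrast of 12 with 4 weeks goes from 115 to 3, 178 and 0.

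Of the 83 entries that differed between durations, 12 passed whichever of the 16 arrays was left out: miR-29a-3p, miR-449a-5p, miR-542-3p, miR-335-5p, miR-133a-3p, miR-133b-3p, miR-301a-3p, miR-31-5p, miR-140-5p, miR-500-3p, miR-27a-3p and miR-199a-5p. Their values by array follow, since with the pairs averaged none of them passed (adjusted p = 0.63 for each of miR-29a-3p, miR-449a-5p and miR-542-3p in the limma test of any difference).

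miR-29a-3p rose with duration. On the log2 scale its 4 arrays read 3.1, 3.23, 3.16 and 2.97 at 4 weeks, 3.47, 3.46, 3.31 and 3.27 at 6 weeks, 3.49, 3.41, 3.38 and 3.45 at 8 weeks, and 3.51, 3.77, 3.63 and 3.69 at 12 weeks. Every array of 4 weeks was below every other array, and every array of 12 weeks was above all the others. The difference of 12 from 4 weeks was 0.54 ± 0.07 (SE), or 1.45-fold, with a limma adjusted p of 0.000735, and it was positive on each of the 4 slides, from 0.4 to 0.67. Over all 265 entries, 68.7% kept 1 sign on the 4 slides in this contrast, and 47.5% did not overlap between 4 and 12 weeks. The miR-29a-3p call depended on scaling: with quantile scaling the difference was 0.21 (limma adjusted p = 0.271) and 0.27 in the authors' deposited table (adjusted p = 0.104).
Of the 6 miR-29 arms tested, 4 rose from 4 to 12 weeks, where 35.5% of all entries rose, and the median of the 6 was 0.34. miR-29c-3p, with the same seed, rose by 0.34 ± 0.11 (limma adjusted p = 0.0294). miR-29b-3p, also with that seed, read 2.22 at 4 weeks and 2.23 at 12 weeks, a difference of 0.01 ± 0.23.

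miR-449a-5p, one of the multiciliated cell miRNAs, fell. Its arrays read -2.54, -2.46, -2.54 and -2.31 at 4 weeks, -2.57, -2.69, -3.3 and -3.36 at 6 weeks, -2.85, -2.5, -2.79 and -2.88 at 8 weeks, and -3.75, -3.45, -3.63 and -3.55 at 12 weeks. The 12-week arrays were lowest of all, and the 6-week arrays split into the same 2 pairs as the whole profile did. From 4 to 12 weeks it fell by 1.13 ± 0.16 on the log2 scale, 2.19-fold (limma adjusted p = 0.000735), and from 8 to 12 weeks by 0.84 ± 0.16 (adjusted p = 0.0158). The 12-week fall from 4 weeks was -1.18 with quantile scaling (adjusted p = 0.00375) and -1.27 in the authors' deposited table (adjusted p = 0.00129), and passed without 4-week arrays 1 and 4 (adjusted p = 0.0249).
The other multiciliated arms did not pass, or moved the other way. miR-34b-5p, which carries the same seed, differed by -0.28 ± 0.21 from 4 to 12 weeks (limma adjusted p = 0.278), and miR-34c-5p by -0.13 ± 0.14 (adjusted p = 0.458). The opposite arms of those hairpins rose: miR-34c-3p by 0.66 ± 0.14 and miR-34b-3p by 0.62 ± 0.14, each with an adjusted p of 0.0159. miR-34c-3p read -4.28, -3.79, -3.86 and -4.03 at 4 weeks and -3.43, -3.28, -3.32 and -3.3 at 12 weeks, with no overlap, as for 47.5% of all entries. Their sequences share the seed AUCACUA:
miR-34b-3p: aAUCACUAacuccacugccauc
miR-34c-3p: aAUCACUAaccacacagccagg
Both rises turned into falls, -0.35 for miR-34b-3p and -0.25 for miR-34c-3p, when the background was corrected with normexp from the spots' median signals, and neither of those passed. Without 4-week arrays 1 and 4 neither rise passed (adjusted p = 0.187 for each).

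Of the growth-linked miRNAs, from imprinted or X-linked loci that are active in growing tissue, 3 had their lowest mean at 12 weeks and differed between durations. miR-542-3p read -3.89, -4.09, -3.99 and -3.86 at 4 weeks and -4.39, -4.29, -4.36 and -4.32 at 12 weeks, with the 6-week arrays between -4.27 and -4.12 and the 8-week arrays between -4.11 and -3.96. All 12-week arrays were below all others. It fell by 0.38 ± 0.06 from 4 to 12 weeks (limma adjusted p = 0.000987).
miR-335-5p, made from an intron of the imprinted gene Mest, read -2.04, -2.09, -2.12 and -2.26 at 8 weeks and -2.84, -2.51, -2.75 and -2.62 at 12 weeks. It fell by 0.55 ± 0.08 between them (limma adjusted p = 0.00371) and passed whichever array was left out. The opposite arms, miR-335-3p and miR-542-5p, did not pass the limma test of any difference (adjusted p = 0.746 and 0.23). miR-450a-5p, from the X-linked cluster of miR-542, fell by 0.33 ± 0.08 from 4 to 12 weeks (adjusted p = 0.0172), although 1 of its 12-week arrays lay within the range of 4 weeks. Of the 9 miRNAs tested in this group, 3 fell and none rose from 4 to 12 weeks, where 7.92% of all entries fell. The median of the 9 was -0.1.
The 2 that passed whichever array was left out have different seeds and lie on chromosomes X and 6:
miR-542-3p: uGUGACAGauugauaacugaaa
miR-335-5p: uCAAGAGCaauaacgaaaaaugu

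**Figure D4:**
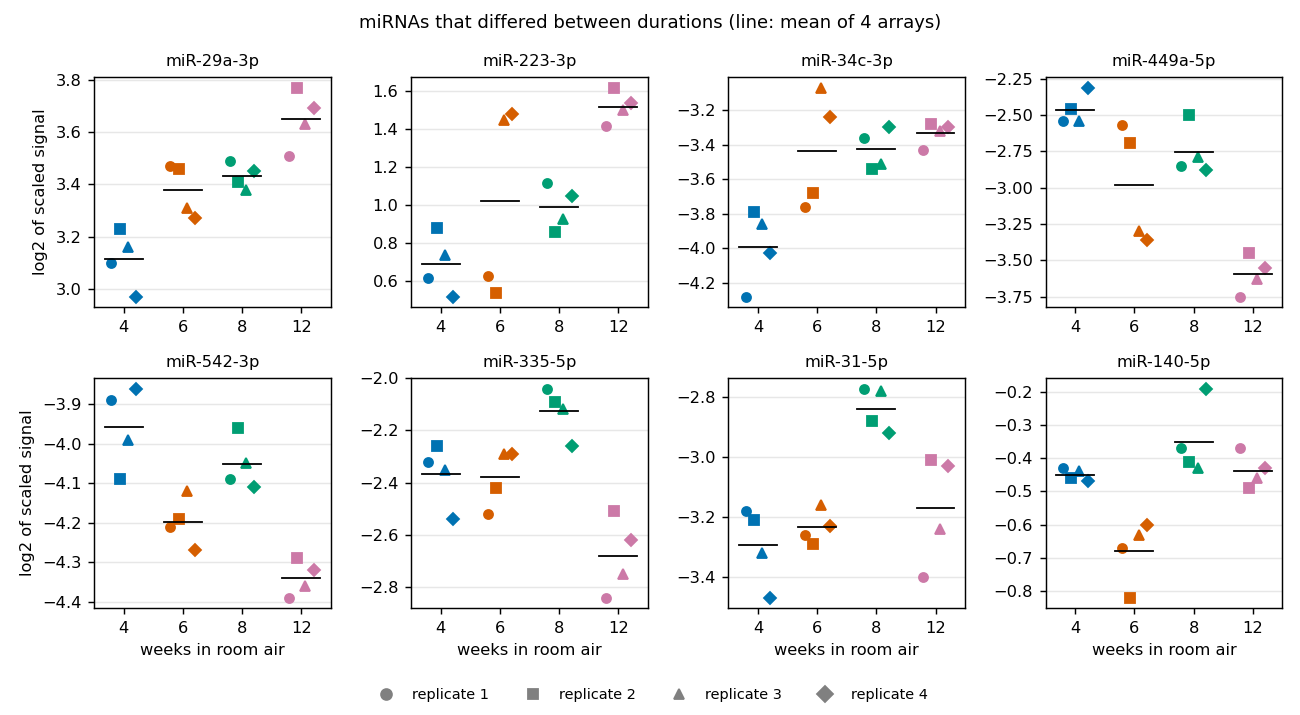
Log2 of scaled signal (y axis, own range per panel) against weeks in room air for 8 miRNAs, 1 symbol per replicate array and a line at the mean of 4 arrays. miR-29a-3p and miR-223-3p are highest at 12 weeks, miR-449a-5p, miR-542-3p and miR-335-5p lowest; miR-31-5p stands out at 8 weeks and miR-140-5p dips at 6 weeks.

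The 8-week arrays were the tightest group, and the few entries called against 6 weeks differed slightly. Not all of these were rises particular to 8 weeks: miR-140-5p dipped at 6 weeks, and 1 miR-24 5p arm was also called lower from 4 to 6 weeks. All 8 entries called between 6 and 8 weeks were higher at 8 weeks, a split that changed with the percentile over all probes, with quantile scaling and in the deposited table, and the 2 durations did not overlap in any of them. Over all 265 entries, 17.4% did not overlap between these durations. miR-31-5p, which is induced in inflamed and regenerating epithelium, read -2.77, -2.88, -2.78 and -2.92 at 8 weeks, and no array of any other duration exceeded -3.01. It was 0.4 ± 0.09 higher at 8 than at 6 weeks (limma adjusted p = 0.0278). miR-146b-5p, a feedback repressor of inflammatory signalling, read -0.38 to -0.31 at 8 weeks against -0.68 to -0.58 at 6 weeks, a rise of 0.28 ± 0.06 (adjusted p = 0.0268).
miR-140-5p, best known from cartilage, was lowest at 6 weeks, where its arrays read -0.67, -0.82, -0.63 and -0.6. It rose by 0.33 ± 0.06 to 8 weeks (limma adjusted p = 0.0268), and its means at 4 and 12 weeks lay between. The mesenchymal miR-199a-5p rose by 0.23 ± 0.06 (adjusted p = 0.0485). The others were miR-24-1-5p at 0.22, miR-24-2-5p at 0.22, miR-338-3p at 0.2 and miR-669n at 0.79, whose brightest array read -5.4, close to the floor. Leaving out 6-week array 3, or 8-week array 1 or 2, ended all 8 of these calls.

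Striated muscle miRNAs gave 4 of the 5 largest falls from 4 to 6 weeks: they were highest on 2 arrays of 4 weeks and lowest on the arrays of 6 weeks. miR-133a-3p read -1.17, -2.12, -2.3 and -0.45 on 4-week arrays 1 to 4. At 6 weeks it read -3.4, -3.28, -3.28 and -3.25, at 8 weeks -2.36 to -2.26 and at 12 weeks -2.57 to -2.25. The 4-week arrays 1 and 4 were thus above all the others, while the 6-week arrays were below all the others. Its partner miR-133b-3p followed the same order, with 0.39 on 4-week array 4 and -2.56 to -2.42 at 6 weeks.
miR-1a-3p, the most abundant miRNA of heart and skeletal muscle, read 1.89 and 2.46 on 4-week arrays 1 and 4, 0.55 and 0.49 on arrays 2 and 3, and -0.57 to -0.21 at 6 weeks. From 4 to 6 weeks all 5 muscle miRNAs tested fell, where 7.55% of all entries fell, with a median of -1.78. miR-133b-3p fell by 1.8 ± 0.3, miR-133a-3p by 1.79 ± 0.29 and miR-1a-3p by 1.72 ± 0.34 (limma adjusted p = 0.00384, 0.00384 and 0.0137). Without 4-week arrays 1 and 4 the falls were smaller, -1.08, -1.1 and -0.90, and passed (limma adjusted p = 1.31e-05, 1.31e-05 and 0.000442). These 2 arrays were chosen for being high in these same miRNAs, so leaving them out also lowers the spread at 4 weeks. The arrays that remain, 2 and 3, are a close pair. The lower p-values are therefore no added support.

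miR-206-3p, which is made in skeletal but not heart muscle, was above the floor on those 2 arrays alone, at -3.22 and -2.81. Of the heart miRNAs, miR-208a-3p and miR-499-5p were at the floor on every array, while miR-208b-3p averaged -5.21. The same 2 arrays were highest in the squamous epithelial miRNAs: miR-205-5p read -3.6 and -3.37 on them and -6.07 and -6.21 on the other 4-week arrays, and miR-203-3p read -1.22 and -1.47 against -2.76 and -2.78. The higher 4-week level of miR-205-5p was at least 2.79-fold that of 12 weeks, where it was not well above background on any array, and it rests on arrays 1 and 4. In whole lung, more cells of a type and more RNA per cell cannot be told apart. The part of these markers in the other differences from 4 weeks was not tested. The counts without both arrays are given above.

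**Figure D5:**
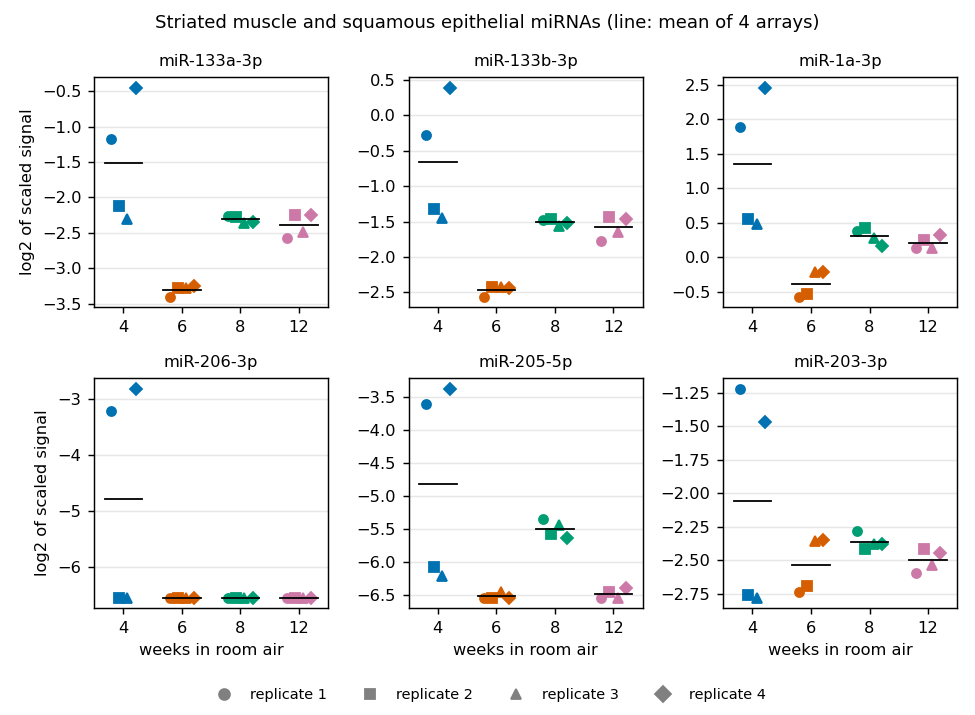
Log2 of scaled signal (y axis, own range per panel) of 4 striated muscle miRNAs and 2 squamous epithelial miRNAs against weeks in room air, 1 symbol per replicate array and a line at the mean. 4-week replicates 1 and 4 are highest in all 6 panels, and miR-206-3p is at the floor of -6.54 on all other arrays.

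Of 8 leukocyte miRNAs tested, 4 rose from 4 to 12 weeks, where 35.5% of all entries rose, and none fell. Their median was 0.46 against 0.20 over all entries. miR-223-3p, the neutrophil miRNA, read 0.62, 0.88, 0.74 and 0.52 at 4 weeks, 0.63, 0.54, 1.45 and 1.48 at 6 weeks, 1.12, 0.86, 0.93 and 1.05 at 8 weeks, and 1.42, 1.62, 1.5 and 1.54 at 12 weeks. The 12-week arrays were above those of 4 and 8 weeks, and 6-week arrays 3 and 4 lay among them. It rose by 0.83 ± 0.18 from 4 to 12 weeks, 1.77-fold (limma adjusted p = 0.0159).
miR-155-5p, induced in activated lymphocytes and macrophages, rose by 0.67 ± 0.18 (limma adjusted p = 0.0177). miR-150-5p of mature lymphocytes rose by 0.67 ± 0.22 (adjusted p = 0.0307). miR-142-3p, present in all leukocytes, gave -0.13 ± 0.12 (adjusted p = 0.398), so these miRNAs did not move as 1 block. Without 4-week arrays 1 and 4 the differences were 0.71, 0.52 and 0.39 for miR-223-3p, miR-155-5p and miR-150-5p, and none passed (adjusted p = 0.187, 0.233 and 0.303).

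The 6-week arrays 3 and 4 were above 6-week arrays 1 and 2 in most of the miRNAs that rose from 4 to 12 weeks. This does not measure likeness to 12 weeks. Over the brighter miRNAs, 6-week arrays 3 and 4 lay 0.261 to 0.334 from the 12-week arrays. The distances of 6-week arrays 1 and 2 from them were 0.23 to 0.388, so the ranges overlapped. Of the 94 entries that rose from 4 to 12 weeks, 85 were higher on 6-week arrays 3 and 4 than on arrays 1 and 2, by a median of 0.49, against 209 of all 265 entries and a median of 0.36. The first principal component held 64.2% of the variance of 216 entries. On it 6-week arrays 3 and 4 stood at -5.03 and -5.4, beyond the 12-week arrays, which lay between -3.24 and -0.58. The 8-week arrays lay between -0.82 and 1.64, 6-week arrays 1 and 2 at 1.91 and 3.28, and 4-week arrays between 1.27 and 5.7. The third component, with 7.72%, set the 8-week arrays (-1.78 to -1.37) apart from all the others. Before scaling, the 75th percentile was 1199 and 861.1 on 6-week arrays 3 and 4 and 932.6 to 1336 at 12 weeks. It was 2145 and 3426 on 6-week arrays 1 and 2, 1972 to 3155 at 8 weeks and 1283 to 2543 at 4 weeks. Whether this level of signal has a part in the split of the 6-week arrays was not tested.

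Most family members that passed rose from 4 to 12 weeks, in shares that lay on both sides of the 35.5% of all entries that rose. In the let-7 family 3 of 13 rose, among them let-7b-5p by 0.43 ± 0.15 (limma adjusted p = 0.0393). let-7f-5p, the brightest, gave 0.17 ± 0.1 (adjusted p = 0.188). In the miR-30 family 5 of 10 rose, with miR-30d-5p at 0.34 ± 0.09 (adjusted p = 0.0177), and among the miR-23, miR-24 and miR-27 clusters 5 of 7, with miR-27a-3p at 0.14 ± 0.05 (adjusted p = 0.0294). In the miR-15 and miR-16 family 4 of 9 rose and 1 fell, with miR-15b-5p at 0.46 ± 0.13 (adjusted p = 0.0218), whereas miR-15a-5p gave -0.02 ± 0.04. Among the miR-99, miR-100, miR-125 and miR-26 arms 5 of 10 rose, in the miR-181 family 2 of 5 and in the miR-17 clusters 3 of 12. With no scaling the sign was not kept by 2 of the 3 let-7 members, 1 of 5 miR-30, 2 of 4 miR-29, 3 of 5 in the miR-15 and miR-16 family, 2 of 3 in the miR-17 clusters, 3 of 5 in the miR-23, miR-24 and miR-27 clusters, 3 of 5 in the miR-99 to miR-26 group and both miR-181 members. With quantile scaling it was not kept by 1 of 3 let-7 members, 1 of 5 in the miR-15 and miR-16 family and 3 of 5 in the miR-23, miR-24 and miR-27 clusters.

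From 4 to 12 weeks, where 35.5% of all entries rose, 6 of 12 epithelial miRNAs rose, with miR-200b-3p at 0.42 ± 0.12 (limma adjusted p = 0.0241) and miR-200c-3p at 0.48 ± 0.15 (adjusted p = 0.0294), which share a seed. miR-141-3p, from the same cluster as miR-200c, gave -0.44 ± 0.23 (adjusted p = 0.125). Beside the same 35.5%, 7 of 13 smooth muscle and mesenchymal miRNAs rose, with miR-10a-5p at 0.55 ± 0.14 (adjusted p = 0.0177), whereas miR-143-3p gave 0.04 ± 0.07. With no scaling the sign turned for 3 of the 6 epithelial and 4 of the 7 mesenchymal members. The endothelial miR-126-3p rose by 0.25 ± 0.09 (adjusted p = 0.0418), but gave -0.16 with no scaling and -0.03 in the authors' deposited table, and passed with only 6 of the 16 arrays left out in turn.
Of inflammation-responsive miRNAs 3 of 6 rose, again beside 35.5% of all entries, with miR-21-5p at 0.15 ± 0.05 (limma adjusted p = 0.0294) and miR-132-3p at 0.5 ± 0.12 (adjusted p = 0.0177). The mean of miR-132-3p was -5.74, close to the floor. Its 2 detected probes differed by 0.02 and 0.5, so the rise rests on the brighter probe. The rise of miR-21-5p became -0.19 with quantile scaling and -0.25 with none. The erythroid miR-144-3p fell by 1.24 ± 0.34 from 4 to 12 weeks (adjusted p = 0.0224), while miR-451, from the same transcript, gave 0.1 ± 0.13. miR-144-3p was also the most variable miRNA within durations, and at 6 weeks it read 0.39 and 0.96 on arrays 1 and 2 but -0.99 and -0.85 on arrays 3 and 4. In the Dlk1-Dio3 region 3 of 8 tested miRNAs fell from 4 to 12 weeks, where 7.92% of all entries fell, among them miR-136-5p by 0.95 ± 0.27 (adjusted p = 0.0241) and miR-379-5p by 0.35 ± 0.1 (adjusted p = 0.0241). The Sfmbt2 intron cluster gave 0 calls of 8 in this limma contrast, where 43.4% of all entries were called.

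From 4 to 6 weeks the largest rises after miR-690 (0.74 ± 0.16, limma adjusted p = 0.0226) were those of miR-34c-3p, miR-425-5p, miR-34b-3p, miR-15b-5p, miR-25-3p, miR-200b-5p and miR-193-5p, between 0.46 and 0.55. In each of these 8 the highest 6-week values were those of arrays 3 and 4. From 4 to 12 weeks miR-1224-5p rose by 0.8 ± 0.18 (adjusted p = 0.0159), miR-139-5p by 0.72 ± 0.21 (adjusted p = 0.0241) and miR-361-5p by 0.55 ± 0.13 (adjusted p = 0.0172). miR-33-5p, which lies in the sterol regulator gene Srebf2, fell by 1.18 ± 0.37 (adjusted p = 0.0294).
miR-301a-3p read -1.13 to -0.96 at 4 weeks and -1.4 to -1.3 at 12 weeks, a fall of 0.31 ± 0.06 (limma adjusted p = 0.0113). miR-551b-3p read -5.88 to -5.66 at 4 weeks and was at the floor on all 12-week arrays, so its 4-week level was at least 1.41-fold higher. In the contrast of 12 with 4 weeks it passed in every leave-out (limma adjusted p at most 0.0437), but it did not do so in the test of any difference. Because the floor sets all its 12-week values, leaving out an array of 12 weeks cannot change that mean, and the leave-outs are weak support. With the pairs averaged it did not pass (limma adjusted p = 0.63 for any difference and 0.388 for the trend). miR-705 was at the floor on all arrays of 4 and 8 weeks and between -6.37 and -6.09 at 12 weeks, and its sign at 12 against 8 weeks turned with no scaling.

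Within durations the 214 miRNAs varied with a median residual SD of 0.174, from 0.045 to 0.522. The median SD was 0.074 at 8 weeks, 0.104 at 12 weeks, 0.12 at 4 weeks and 0.274 at 6 weeks. As raw shares of the sum of squares, duration took a median of 45.8% of a miRNA's variance and slide 11.2%. Any split of so few arrays takes some share without an effect, and close pairs of arrays can raise that of duration. The shares were not corrected for either. The steadiest were miR-15a-5p (SD 0.045), miR-20a-5p (0.045), miR-27a-3p (0.048), miR-20b-5p, miR-872-5p, miR-24-1-5p, miR-338-3p and miR-27b-3p. The most variable were miR-144-3p (0.522), miR-1a-3p (0.508), let-7d-3p (0.485), miR-720 (0.453), miR-133b-3p, miR-133a-3p, miR-328-3p and miR-203-3p. Of these 8 only miR-144-3p, miR-720, let-7d-3p and miR-328-3p were most spread at 6 weeks, and the muscle and squamous members were most spread at 4 weeks.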

How the data were processed

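Room-air lung RNA was measured on 16 1-colour Agilent arrays. Intensities, per the file headers, are the deposited gProcessedSignal values of Agilent Feature Extraction, 1 array per file; the extraction method named in the labels' protocols is TRIzol. The authors' deposited series table holds log2 values, with no statement of their scaling, and served as an alternative. The number of arrays limits the precision. Control and outlier spots were left out, spots of a probe averaged, each array divided by its 75th percentile over probes detected on all 16 arrays, and values floored at a log2 of -6.54. The brightest probe stood for a miRNA. A fold against a duration with no array well above background is a lower bound, set by the lowest signal well above background there. A probe was detected where at least 50% of its spots were above background. limma 3.58.1 in R 4.3.3 fitted 4 duration means (12 residual df), with Benjamini-Hochberg adjustment over 265 entries at 0.05; the scripts were tested on simulated data.

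Named miRNAs were the 20 brightest, up to 20 with the lowest p in the test of any difference, up to 8 rises and 8 falls per contrast and trend, the 8 steadiest and 8 most variable, and list members that passed or were brightest. Members and lists were chosen with earlier results of these data known. Because the files hold no mean spot signal, the normexp alternative used median signals (offset 50). Alternatives covered scaling, background, probe summary, floor, filters, slide and replicate number as blocks, and arrays left out; 3 were added after the data were seen: closest pairs averaged, the same pairs as a random block, and 2 arrays of 6 weeks left out.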

Additional observations from a re-analysis of the deposited data

Results flagged for a closer look

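In 10 of 264 groups of 4 arrays, 1 array of a named miRNA stood apart from the other 3 by more than Dixon's critical value. Chance alone gives about 1 such array in 20 groups. At 4 weeks these were array 4 for miR-1224-5p (-1.65), miR-22-3p (2.68) and miR-24-1-5p (-3.16), and array 1 for miR-669n (-5.68). At 6 weeks they were array 3 for miR-205-5p (-6.46) and miR-669n (-6.52) and array 4 for miR-705 (-6.33), all 3 near the floor of -6.54. At 8 weeks, where the arrays lie closest, array 1 stood apart for let-7b-5p (3.62), miR-25-3p (-0.09) and miR-30a-5p (3.36).

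Outside the mouse miRNAs, 2 viral entries were detected on all 16 room-air arrays: mcmv-miR-M23-1-5p at a mean of -5.21 and mghv-miR-M1-2-3p at -5.89, against a floor of -6.54. What these probes bind was not tested.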

How the results depend on the processing

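The number of entries called past an adjusted p of 0.05 depended on nearly every choice, and no cause of these moves was tested. With all 16 arrays it was 83 for any difference, 40 for 6 against 4 weeks, 8 for 8 against 6, 4 for 12 against 8, 115 for 12 against 4 and 26 for the trend, and values below follow that order of tests where the count moved by over 1.5 times. With the closest pairs averaged, or as a random block, all 6 counts were 0. With no scaling any difference gave 2, 6 against 4 gave 0, 8 against 6 gave 2, 12 against 8 gave 206, 12 against 4 gave 0 and the trend 0. With the percentile over all probes 6 against 4 gave 83, 12 against 8 gave 22, 12 against 4 gave 67 and the trend 2. Quantile scaling gave 64, 17, 24, 71 and 2, and the table the authors deposited 85, 29, 34, 72 and 3, in each case for 6 against 4, 8 against 6, 12 against 8, 12 against 4 and the trend. Normexp gave 2, 2, 0, 0, 0 and 0 for the 6 tests. The scanner's sum per miRNA gave 36 for any difference, 0 for 8 against 6 and 7 for the trend. The mean of all probes gave 17 for 8 against 6 and 10 for the trend. A floor 4 times higher gave 52 for any difference, 20 for 6 against 4 and 13 for 8 against 6. With no detection filter any difference gave 22, 6 against 4 gave 12, 12 against 4 gave 33 and the trend 2, and with miRNAs detected on all 16 arrays 8 against 6 gave 3. When only the groups compared were fitted, 6 against 4 gave 0 and 12 against 8 gave 67. Slide as a block gave 21 for 6 against 4, 2 for 12 against 8 and 9 for the trend.

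Deviations of arrays with the same replicate number had median correlations of 0.04, -0.36, -0.01 and -0.13, each over 6 pairs. Their ranges were wide: -0.69 to 0.6, -0.57 to 0.72, -0.64 to 0.33 and -0.45 to 0.73. Such medians cannot settle whether the number is a pairing, and it was not taken as one. With the replicate number as a block any difference gave 29, 6 against 4 gave 24, 8 against 6 gave 1, 12 against 8 gave 2, 12 against 4 gave 89 and the trend 7. Without 4-week arrays 1 and 4 the 6 tests gave 17, 6, 21, 4, 3 and 1, and without 6-week arrays 3 and 4 they gave 203, 22, 99, 63, 178 and 158. Leaving out 1 array at a time gave 17 to 158 for any difference, 2 to 133 for 6 against 4, 0 to 17 for 8 against 6, 1 to 9 for 12 against 8, 6 to 133 for 12 against 4 and 2 to 113 for the trend. The contrast of 12 with 4 weeks fell to 6 without 4-week array 4, 21 without 4-week array 1, 16, 51 and 18 without 12-week array 2, 3 and 4.

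The share of signal in the 10 brightest miRNAs was 54.4% with the mean of all probes and 47.3% with normexp, and 51.3 to 51.9% with 1 array left out. Directions of named miRNAs turned mostly with normexp: for 6 against 4 weeks miR-690 gave -0.19, miR-34c-3p -0.44, miR-425-5p -0.28, miR-34b-3p -0.54, miR-200b-5p -0.91 and miR-193-5p -1.08; for 8 against 6 miR-669n gave -0.03; for 12 against 8 miR-542-3p gave 0.17; for 12 against 4 miR-139-5p gave -0.12, miR-155-5p -0.35, miR-34c-3p -0.25, miR-690 -0.19 and miR-34b-3p -0.35; and for the trend per week miR-34c-3p gave -0.022, miR-34b-3p -0.031 and miR-689_v15.0 -0.036. With no scaling miR-705 gave -0.34 for 12 against 8, as it did with the scanner's sum, and miR-652-3p -0.00046 per week. miRNAs near the floor, such as miR-551b-3p, miR-705 and miR-669n, have only bounds on their dim side.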
